A study of Mus musculus with 11 samples.

Results

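Interferon-stimulated genes are the genes that cells switch on when an interferon binds its receptor. Of the 20893 genes in the whole-liver RNA-seq table, 9 chosen by symbol are described here: Ifit1, Ifit2, Ifit3, Isg15, Usp18, Irf7, Oasl2, Rsad2 and Rtp4. All 9 had a row and all 9 passed the filter on low values, which left 14244 genes to test. The livers came from C57BL/6 mice in which doxycycline turns on a constitutively active YAP, the transcriptional coactivator at the end of the Hippo pathway, in hepatocytes. There were 11 livers, 1 library per mouse. The 4 controls carried ROSA26-rtTA-IRES-EGFP without the tetYAP transgene and received doxycycline food for 7 days, and the induced mice carried both and received it for 3 days (4 livers) or 7 days (3 livers). The doxycycline-dependent activator, present in every group, is limited to hepatocytes by an albumin-driven Cre, whereas the RNA came from the whole liver. Ages were not given. The label of 3-day livers 1 and 4 and of 7-day liver 2 ends in MF, a suffix that the labels do not explain.

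In the classical pathway, type I interferons bind the receptor chains Ifnar1 and Ifnar2, and the kinases Jak1 and Tyk2 then pass the signal to transcription factors, Stat2 and Irf9 among them, that bind the interferon-stimulated response element (ISRE) near the start of target genes. In the liver, hepatocytes as well as Kupffer cells and other leukocytes respond to interferon. In RNA from a whole organ, fewer cells of a type and less RNA per cell cannot be told apart.

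Members differed in the sequence before their start sites. RefSeq promoters (GRCm38.p6) were given for 7 of the 9 genes, with 8 start sites, and the 250 bases before each start site were searched on both strands. The letters GAAA, any 2 bases and GAAA, a core of the ISRE, were found at 4 start sites, against 2.98% of all 32851 promoters. Ifit1 and Ifit3 each held 2 matches, Rsad2 held 1 and Isg15 held 3 that overlap each other. No match was found at either start site of Ifit2, nor for Irf7 or Oasl2, which says only that these letters are not in this window. The letters TTC, any 3 bases and GAA, a core of the gamma-activated sequence used by interferon-γ, were found at 1 of the 8 start sites, the first of Ifit2, against 7.02% of all promoters. The letters GGAATG, a core of the TEAD motif through which YAP reaches DNA, were found at 0 of the 8 start sites, against 12.6% of all promoters. The 170 bases before the start are printed for the 4 genes with a match and for Ifit2, the gene that changed most, with the ISRE letters in capitals. Ifit2, Ifit3 and Ifit1 lie in this order on the plus strand of chromosome 19 and are called neighbors here. Whether other genes lie between them was not examined.
Ifit1, chr19:34640719-34640888, plus strand: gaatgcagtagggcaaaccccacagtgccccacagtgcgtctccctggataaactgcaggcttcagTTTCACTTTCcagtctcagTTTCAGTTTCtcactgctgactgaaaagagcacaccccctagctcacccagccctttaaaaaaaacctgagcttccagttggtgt
Ifit3, chr19:34583359-34583528, plus strand: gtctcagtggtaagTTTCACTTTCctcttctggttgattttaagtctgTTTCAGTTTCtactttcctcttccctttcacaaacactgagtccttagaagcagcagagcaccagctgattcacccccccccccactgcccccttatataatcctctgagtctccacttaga
Isg15, chr4:156200819-156200988, minus strand: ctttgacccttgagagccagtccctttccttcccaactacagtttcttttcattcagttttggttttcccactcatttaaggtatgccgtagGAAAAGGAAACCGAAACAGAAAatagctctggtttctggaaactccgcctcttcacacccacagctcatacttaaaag
Rsad2, chr12:26456453-26456622, minus strand: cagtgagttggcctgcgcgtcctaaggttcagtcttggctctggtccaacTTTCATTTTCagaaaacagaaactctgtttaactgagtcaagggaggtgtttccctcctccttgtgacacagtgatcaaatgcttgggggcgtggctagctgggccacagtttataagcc
Ifit2, first start site, chr19:34550524-34550693, plus strand: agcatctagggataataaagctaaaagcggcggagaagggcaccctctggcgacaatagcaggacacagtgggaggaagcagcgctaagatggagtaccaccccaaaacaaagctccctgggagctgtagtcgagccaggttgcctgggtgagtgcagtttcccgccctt
Ifit2, second start site, chr19:34550918-34551087, plus strand: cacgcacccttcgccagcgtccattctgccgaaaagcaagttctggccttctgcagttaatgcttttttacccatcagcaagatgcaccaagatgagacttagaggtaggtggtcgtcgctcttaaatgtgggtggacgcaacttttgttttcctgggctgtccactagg

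Depth ranged from 1251396 reads on genes in control liver 4 to 5941357 in a 7-day liver. The 7-day libraries were the deepest (at least 5312486 reads), so depth and time were not balanced. The YAP target Cyr61 was at 5.76 to 14.3 eRPKM in control livers and reached 90.5 to 91.3 after 7 days, and Ctgf went from a range of 5.20 to 14.2 to one of 87.3 to 103. Yap1 was at 13.9 to 21.1 eRPKM in controls and 17.4 to 19 at 7 days. Whether this row counts reads of the YAP transgene is not given in the sources used here, so it cannot show whether the transgene was induced. By Xist and Ddx3y, 2 of 4 controls (2 and 3), 2 of 4 livers at 3 days (3 and 4) and 3 of 3 at 7 days were female. The 6 hepatocyte markers were detected in every liver. The most abundant transcripts did not follow depth: Alb had 2417 to 3102 reads, a 1.28-fold range, over a 4.75-fold range of depth. The members, with at most 229.6 reads per kilobase in a liver, lie far below it.

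After 7 days of YAP induction Ifit2 was upregulated, and it was the 1 member called. A gene was called where limma, on log2(eRPKM + 0.5), gave it a log2 fold change beyond 0.5 in either direction and an adjusted p (Benjamini-Hochberg) below 0.01. At 7 days 23.8% of all tested genes were called (18.0% higher, 5.77% lower), at 3 days 0.0421% and between the times 19.3% (14% higher, 5.31% lower). The balance of directions over all genes depended on the scaling. At 7 days 2561 genes were higher and 822 lower on the values as deposited, 1951 and 1254 with median-ratio size factors and 1857 and 1821 with quantile normalization. Between the times these counts were 1997 and 756, 1516 and 1181, and 1436 and 1430. At 3 days 0 of the 9 members were called by limma and 0 by limma-voom. An unadjusted p under 0.05 was found for 2 (Ifit2 and Usp18), against 1718 of all 14244 tested genes. Between 7 and 3 days 0 were called by limma and 1 (Ifit2) by limma-voom. Here 3 had an unadjusted p under 0.05, against 6578 of all 14244 tested genes. The median log2 fold change of the members was −0.19 at 3 days and −0.27 at 7 days against control, while the median of all tested genes was 0.02 and 0.26. Relative to that median, 3 members were higher and 6 lower at each time.

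**Figure D1:**
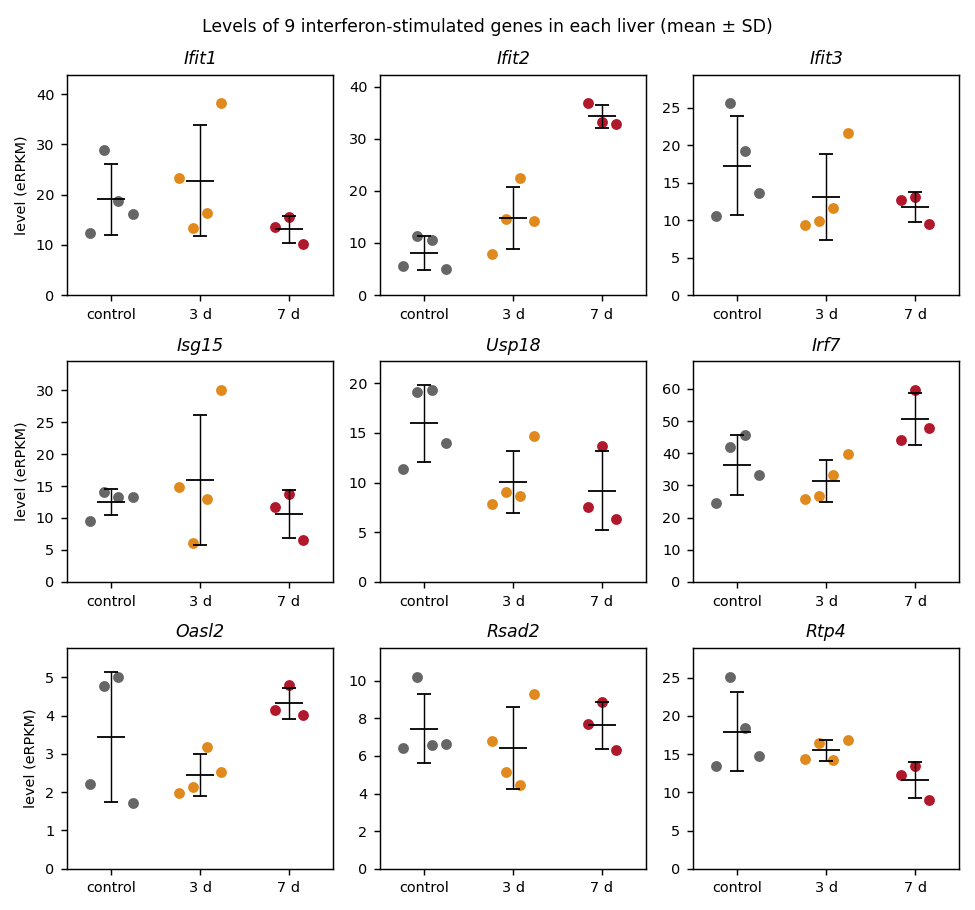
Level of each of the 9 genes (eRPKM, vertical axis from 0) in control, 3-day and 7-day livers; each point is a liver and the bars give the mean ± SD (n = 4, 4 and 3). All 7-day livers lie above all controls for Ifit2 only, and the other 8 genes overlap between these groups.

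The Ifit proteins bind foreign or incompletely capped RNA and limit its translation. Ifit2 (chr19:34625184-34650909 in mm9, plus strand) was at 5.61, 11.3, 10.5 and 4.91 eRPKM in the 4 controls. It was at 7.84, 14.5, 22.5 and 14.3 at 3 days and at 36.8, 33.3 and 32.8 at 7 days. At 3 days livers 2, 3 and 4 lay above every control, liver 1 lay among them, and the 7-day livers lay above all others. The mean went from 8.07 ± 3.27 (SD, n = 4) to 34.3 ± 2.18 eRPKM (SD, n = 3). On the log2 scale this was a rise of 2.10 ± 0.34 (SE; 95% interval 1.38 to 2.83), a 4.30-fold change with a limma adjusted p of 0.000399. The exact two-sided permutation p was 0.0286, the smallest that 3 against 4 livers can give, and 0.308 after adjustment over 27 tests. At 3 days the log2 fold change was 0.83 ± 0.31 (limma adjusted p = 0.299), and between 7 and 3 days 1.27 ± 0.34 (limma adjusted p = 0.0113). Among female livers alone, the rise at 7 days was 1.61 ± 0.21 (limma adjusted p = 0.000841). With log2 depth in the fit it was 1.66 with a limma adjusted p of 0.0109, above the threshold.

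Ifit1 and Ifit3 did not follow their neighbor. Ifit1 (chr19:34715361-34724499) was at 12.4, 28.9, 18.8 and 16.2 eRPKM in controls, at 23.3, 13.4, 16.3 and 38.2 at 3 days and at 13.5, 15.6 and 10.2 at 7 days. Liver 4 at 3 days was the highest and the groups overlapped. Its log2 fold change was 0.20 ± 0.32 at 3 days and −0.48 ± 0.34 at 7 days (limma adjusted p = 0.836 and 0.293). Ifit3 (chr19:34658021-34663221) was at 10.6, 25.6, 19.2 and 13.6 eRPKM in controls, at 9.29, 9.90, 11.6 and 21.6 at 3 days and at 12.7, 13.1 and 9.51 at 7 days. Its 7-day livers lay within or below the control range, and the log2 fold change at 7 days was −0.47 ± 0.32 (95% interval −1.16 to 0.23; limma adjusted p = 0.273). Of the 50-base words in protein-coding transcripts of Ifit3, 51.53% also occur in those of other genes. The gene sharing most of them was I830012O16Rik, a near-copy with no row in the table, so the Ifit3 values are uncertain. For Ifit1 the share of words found in other genes was 7.13%, with 2010002M12Rik sharing most, and for Ifit2 it was 0%.

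The ratio of Ifit2 to each neighbor, taken within each liver, was examined after the values were seen. Ifit2/Ifit1 was 0.454, 0.389, 0.559 and 0.304 in controls. It was 0.336, 1.08, 1.38 and 0.376 at 3 days and 2.74, 2.13 and 3.2 at 7 days. At 3 days livers 1 and 4, both labeled MF, had a ratio in the control range, whereas livers 2 and 3 lay above it. Ifit2/Ifit3 was 0.361 to 0.549 in controls, with 0.663 to 1.94 in 3-day livers and 2.54 to 3.45 in 7-day livers, without overlap between any of the groups. At 7 days against control the log2 ratios differed by 2.67 and 2.66, each with an exact permutation p of 0.0286, the smallest possible, or 0.0572 adjusted over 6 tests. A ratio within a liver shows unequal change, and the scaling of the library cancels in it.

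**Figure D2:**
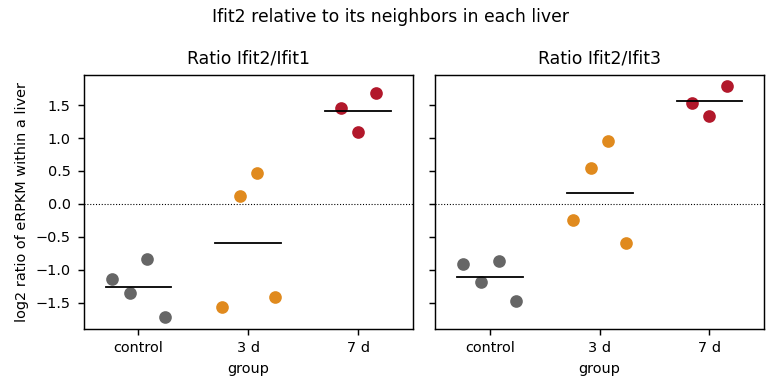
Log2 ratio of the eRPKM of Ifit2 to that of Ifit1 (left) and of Ifit3 (right) in each liver; points are livers, lines are group means and 0 marks equal levels. Controls lie below 0 and all 7-day livers above 1 in both panels, and the 3-day livers lie between or among them.

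Isg15 and Usp18 form a pair: Isg15 is a ubiquitin-like protein that is attached to other proteins, and Usp18 removes it and also dampens signaling from the interferon receptor. Isg15 (chr4:155573533-155574927) was at 9.55, 14, 13.3 and 13.3 eRPKM in controls, at 14.9, 6.01, 12.9 and 30.0 at 3 days and at 11.7, 13.8 and 6.52 at 7 days. It varied most at 3 days, where it spanned 6.01 to 30.0, and it rests on 13 to 86 reads per liver. Its log2 fold change was −0.27 ± 0.41 at 7 days (limma adjusted p = 0.632).

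Usp18 (chr6:121195924-121220934) was at 11.4, 19.1, 19.3 and 14 eRPKM in controls, at 7.81, 9.06, 8.63 and 14.7 at 3 days and at 7.57, 13.7 and 6.29 at 7 days. At 3 days 3 of the 4 livers, and at 7 days 2 of the 3, lay below every control. The log2 fold change was −0.65 ± 0.27 at 3 days and −0.81 ± 0.29 at 7 days (limma adjusted p = 0.363 and 0.0461), neither past the threshold. The call depended on the scaling: with median-ratio size factors, which move the median of all genes at 7 days to 0.03, it was −1.06 (limma adjusted p = 0.00921).

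Irf7, the transcription factor that amplifies interferon production, was the most abundant member in every group. It was at 24.6, 41.8, 45.8 and 33.1 eRPKM in controls, at 25.7, 26.8, 33.3 and 39.8 at 3 days and at 44.2, 59.6 and 47.9 at 7 days. Each 7-day liver lay above each 3-day liver, while 1 of them lay within the control range. The log2 fold change was 0.50 ± 0.22 at 7 days against control and 0.69 ± 0.22 against 3 days (limma adjusted p = 0.0959 and 0.0297). At 7 days it was 0.20 among female livers and 0.23 with median-ratio size factors (limma adjusted p = 0.467 and 0.423). Its exons (chr7:148448605-148452380, minus strand) overlap those of Phrf1 on the other strand by 45 bases, and reads were counted without strand.

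Oasl2 and Rsad2 are antiviral effectors, a 2′-5′ oligoadenylate synthetase-like protein and viperin. Oasl2 (chr5:115346943-115362243) was the least abundant member, at 2.22, 4.78, 5.01 and 1.73 eRPKM in controls, at 1.97, 2.13, 3.19 and 2.52 at 3 days and at 4.16, 4.79 and 4.02 at 7 days. Its 7-day livers lay above all 3-day livers but inside the range of the controls, and the log2 fold change between the times was 0.72 ± 0.33 (limma adjusted p = 0.104). Rsad2 (chr12:27127618-27141317) was at 6.43, 10.2, 6.59 and 6.62 eRPKM in controls, at 6.82, 5.13, 4.44 and 9.30 at 3 days and at 7.72, 8.85 and 6.32 at 7 days. The 3 groups overlapped, with a log2 fold change of 0.05 ± 0.26 at 7 days (95% interval −0.52 to 0.62).

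Rtp4, a chaperone of G-protein-coupled receptors, was at 13.5, 25.1, 18.4 and 14.8 eRPKM in controls, at 14.4, 16.5, 14.2 and 16.9 at 3 days and at 12.3, 13.5 and 9.06 at 7 days. Each 7-day liver lay below each 3-day liver. Its log2 fold change at 7 days (chr16:23610005-23614308) was −0.58 ± 0.22 (limma adjusted p = 0.0502), and with median-ratio size factors −0.84 (limma adjusted p = 0.00416). Between 7 and 3 days 3 members (Ifit2, Irf7 and Oasl2) had every 7-day liver above every 3-day liver, against 31.3% of all tested genes, and Rtp4 alone had every one below, against 13.8%. At 7 days against control Ifit2 alone did not overlap, against 36.7% of genes that lay above and 13.3% below. At 3 days against control 0 members did not overlap, against 3.38% above and 2.25% below.

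**Figure D3:**
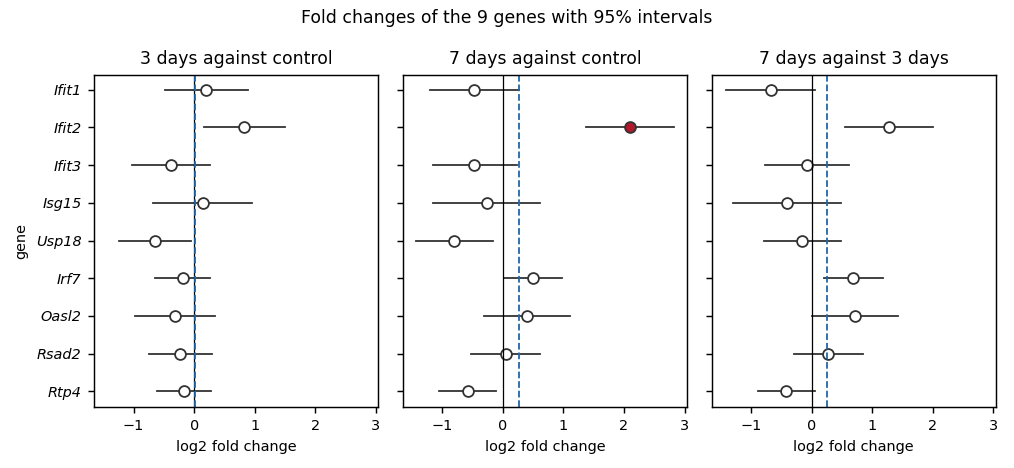
Log2 fold change of each gene (horizontal axis) with its 95% interval in the 3 comparisons; the filled point was called, open points were not, and the dashed line is the median of all tested genes. Ifit2 at 7 days against control (2.10) is the filled point, and the intervals of Ifit1, Ifit3, Isg15, Oasl2 and Rsad2 in that comparison include 0.

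The order of levels, which eRPKM gives per length, differed between groups. In controls Irf7 (36.3 ± 9.44 eRPKM; SD, n = 4) was followed by Ifit1, Rtp4, Ifit3, Usp18, Isg15, Ifit2, Rsad2 and Oasl2 (3.44 ± 1.70). Neighbors in this order overlapped, other than Rsad2 and Oasl2. Ifit2 stood in place 7 in controls, place 5 at 3 days and place 2 at 7 days, and Isg15 in places 6, 3 and 6. At 7 days Irf7 (44.2 to 59.6 eRPKM), Ifit2 (32.8 to 36.8) and the next gene, Ifit1 (10.2 to 15.6), did not overlap.

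Within groups the members varied together from liver to liver. Control liver 2 was above its group mean for 9 of 9 members and the highest control for 6, and control liver 1 was below the mean for 9 of 9. At 3 days liver 4 was above the mean for 9 of 9 and highest for 7. Over the 11 livers the deviations from the group mean had a median Pearson r of 0.66 over the 36 pairs of members, from −0.04 (Ifit2 and Rsad2) to 0.93 (Ifit1 and Rsad2). Ifit2 was least like the rest, with a median r of 0.46, and most like Oasl2 (r = 0.86). These points share library and depth, and r is given as a description. In controls all 9 members had a higher mean in the 2 female livers than in the 2 male livers, and for 7 of them both females lay above both males. Female Ifit2 was at 10.9 and male Ifit2 at 5.26 eRPKM in controls. At 3 days all 9 means were again higher in females, but for 3 members both females lay above both males. These counts were not taken over all tested genes, so there is no share to set them against. Members that vary together do not count separately. As every 7-day liver was female, sex and time are in part confounded. The part of sex in the results was not tested beyond the values for female livers.

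**Figure D4:**
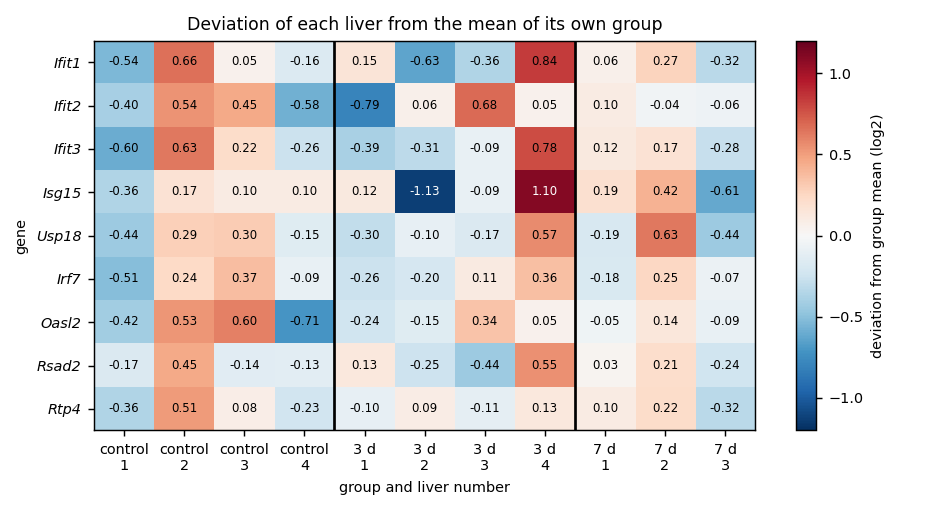
Deviation of each liver from the mean of its group on the log2(eRPKM + 0.5) scale, for the 9 genes (rows) in the 11 livers (columns; vertical lines separate the groups). Control liver 2 and 3-day liver 4 are positive in every row, and the widest range is that of Isg15 at 3 days, from −1.13 to 1.10.

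The 10 other tested genes whose deviations were most like the mean standardized deviation of the members, over 11 livers, were Acot1, Nlrc4, Hsdl2, Acot10, Ly6a, Il18bp, Lst1, Gm5150, Rsph4a and Dmrta1, with Pearson r from 0.96 to 0.92. Among 96 listed interferon genes the median r was 0.52, and over all 14235 tested genes outside the members it was 0.15.

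Interferon transcripts themselves were scarce. Of 11 interferon genes 4 were listed at 0 in every liver (Ifnb1, Ifna1, Ifna5 and Ifnl3), and 1, Ifnk, passed the filter. Ifnk, a type I interferon best known from keratinocytes, was at 6.39 to 10.9 eRPKM in controls, while 3-day livers held 1.96 to 3.55 and 7-day livers 1.99 to 3.58, without overlap with controls. It fell by 1.54 on the log2 scale at 7 days (limma adjusted p = 0.000789), and among female livers by 1.30 with a limma adjusted p of 0.011, above the threshold. Ifng did not exceed 0.668 eRPKM in any liver.

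Chains of the type II and III interferon receptors rose at 7 days, whereas those for type I did not pass the threshold. Of 14 receptor and signaling genes 4 rose (28.6%, against 18.0% of all tested genes) and 0 fell at 7 days by limma. An unadjusted p under 0.05 was found for 7 of the 14, against 6744 of all 14244 tested genes. Ifngr1 went from 20.4 to 64.5 eRPKM (log2 fold change 1.66 ± 0.17), Ifnlr1 from 0.217 to 2.44 (2.07 ± 0.27), Il10rb from 8.32 to 22.7 (1.41 ± 0.20) and Ifngr2 from 18.5 to 33.3 (0.87 ± 0.22), with limma adjusted p of 2.16e-05 to 0.00797. Ifnlr1 reached the 0.5 eRPKM of the filter in the 7-day livers only, with 0 to 9 reads in controls and 45 to 73 at 7 days. It was tested only because it was high there, so its place among the 4 follows in part from the filter. Of the 26 alternatives, 25 kept it. The calls of Ifngr1, Ifnlr1 and Il10rb held under every alternative that kept them, whereas that of Ifngr2 was lost in 15 of 26, among them each fit without 1 of the 7-day livers, with a log2 fold change of 0.57 at the lowest and a limma adjusted p of 0.118 at the highest. The type I chains Ifnar1 and Ifnar2 had log2 fold changes of 0.34 ± 0.14 and 0.23 ± 0.17, and Stat2 and Irf9 of 0.05 ± 0.26 and −0.26 ± 0.21. Ifnar2 and Il10rb share exon bases in the annotation, so their reads may not be separate.

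Among 15 tested sensors and adaptors 3 rose at 7 days, which is 20% against 18.0% of all tested genes. Tlr7, the endosomal receptor for single-stranded RNA, went from 4.29 to 21.4 eRPKM (log2 fold change 2.22 ± 0.41), Tmem173, which encodes STING, from 2.42 to 10.5 (1.94 ± 0.24), and Irf5 from 15.6 to 36.1 (1.19 ± 0.15). The Tlr7 call was lost among female livers and with log2 depth in the fit (limma adjusted p up to 0.0244). Of 4 tested negative regulators 1 rose at 7 days (25%, against 18.0% of all tested genes). This was Samhd1, which degrades nucleotides and rose by 1.27 ± 0.28 on the log2 scale (limma adjusted p = 0.00388). That call was lost in 6 of 26 alternatives, among them female livers, log2 depth and each fit without control liver 1 or 1 of the 7-day livers, with a limma adjusted p of up to 0.0603.

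Other interferon-stimulated genes moved in both directions. Of 47 tested, 6 rose and 3 fell at 7 days against control (12.8% and 6.38%, against 18.0% and 5.77% of all tested genes). Between 7 and 3 days 8 rose and 3 fell (17% and 6.38%, against 14% and 5.31% of all tested genes). At 3 days 0 were called by limma and 0 by limma-voom. There 3 had an unadjusted p under 0.05, against 1718 of all 14244 tested genes. Their median log2 fold change at 7 days was 0.24, near the 0.26 of all tested genes. Epsti1 (1.74 ± 0.25), Oas2 (1.72 ± 0.44), Tor3a (1.38 ± 0.30), Sp110 (1.14 ± 0.28), Oas1a (1.02 ± 0.27) and Lgals3bp (0.90 ± 0.20) rose. The call of Epsti1 held under all 26 alternatives, whereas it was lost in 14 for Oas2, 6 for Tor3a, 16 for Sp110, 17 for Oas1a and 5 for Lgals3bp. Oas2, which makes the 2′-5′ oligoadenylates that activate RNase L, was at 0.523 to 3.17 eRPKM in controls and 5.25 to 7.52 at 7 days. Ube2l6, the conjugating enzyme for Isg15 (−0.89 ± 0.15), and the partners Parp9 (−0.78 ± 0.15) and Dtx3l (−0.73 ± 0.15) fell. Exons of Parp9 and Dtx3l overlap by 458 bases on opposite strands, and reads were counted without strand, so their reads may not be separate. Without 7-day liver 3 the calls of Parp9 and Dtx3l were lost (limma adjusted p = 0.0131 and 0.0212), and Dtx3l also missed the threshold without 7-day liver 1. Among female livers, a comparison of 3 with 2 livers, 1 rose and 4 fell. The count of 9 at 7 days was 5 without control liver 1 or 7-day liver 1, 4 without 7-day liver 2 and 2 without 7-day liver 3. Between the times it was 4 to 7 without 3-day liver 1, 2 or 4 or any 1 of the 7-day livers. The near-copy Oasl1 had a log2 fold change of 0.07 ± 0.23.

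Of 20 tested genes best known as induced by interferon-γ, 1 rose and 3 fell at 7 days (5% and 15%, against 18.0% and 5.77% of all tested genes). The share called in either direction was 20%, against 23.8% of all tested genes. Their median log2 fold change was −0.34, against 0.26 for all tested genes. The chemokine Cxcl9 was at 5.07 to 17.2 eRPKM in controls and 1.37 to 3.14 at 7 days (−2.10 ± 0.49), the GTPase Iigp1 went from 174 to 57.0 eRPKM (−1.56 ± 0.23) and Cxcl11 from 3.86 to 1.47 (−1.14 ± 0.27). Cxcl11 rests on 8 to 45 reads in controls and 10 to 16 at 7 days. Of its 3794 exon bases, 1582 overlap the pseudogene Gm2673 on the other strand, and reads were counted without strand. Irf8, a factor of macrophages and dendritic cells, went from 3.25 to 12.5 eRPKM (1.80 ± 0.26). The calls of Irf8 and Iigp1 held under all 26 alternatives. That of Cxcl9 was lost in 6, with the replicate block or without control liver 1, 2 or 3 or 7-day liver 1 or 3, and that of Cxcl11 in 10, among them each fit without 1 of the 7-day livers (limma adjusted p up to 0.0272 and 0.0323).

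**Figure D5:**
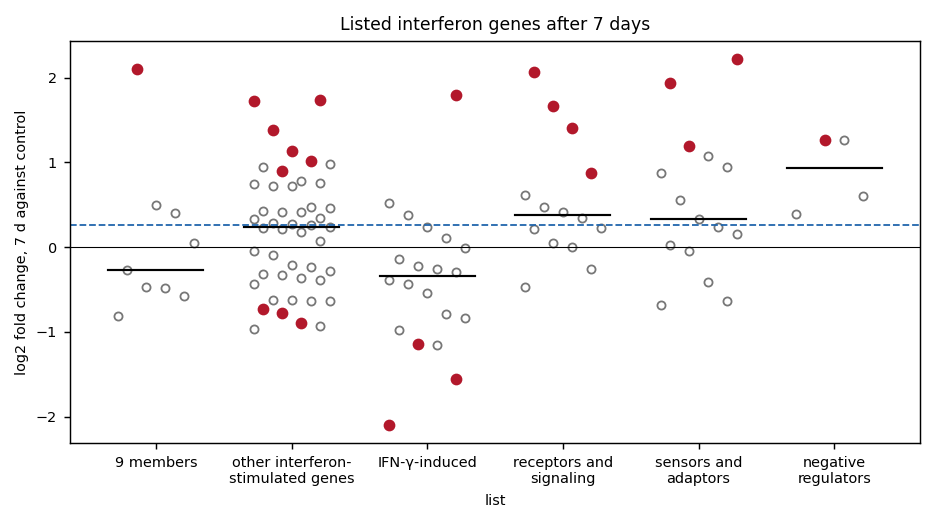
Log2 fold change at 7 days against control (vertical axis) of every tested gene in 6 lists; filled points were called, open points were not, short lines are list medians and the dashed line is the median of all tested genes. The 9 members have a median of −0.27, the other interferon-stimulated genes 0.24 and the IFN-γ-induced genes −0.34.

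Markers of macrophages, of neutrophils and of leukocytes as a whole were higher at 7 days, and those of lymphocytes mostly were not called. Ptprc, carried by all leukocytes, was at 4.65 to 9.63 eRPKM in controls, with 5.23 to 10.4 in 3-day livers and 25.2 to 31.9 in 7-day livers. The summed level of 5 Kupffer cell markers was 157 to 337, 195 to 374 and 607 to 634 eRPKM, with 4 of 5 called higher at 7 days (80%). That of 6 monocyte and macrophage markers was 72.0 to 130, 77.0 to 158 and 271 to 341, with 4 of 6 called higher (66.7%). For 4 neutrophil markers it was 10.1 to 20.1, 8.22 to 17.3 and 30.4 to 45.6. Of these 2 were called higher (50%), S100a9 and Retnlg, the latter with 0 to 1 reads in controls. Of all tested genes 18.0% were called higher. The 6 hepatocyte markers summed to 1340 to 3940 eRPKM in controls and 963 to 1080 at 7 days, with 3 called lower (50%, against 5.77% of all tested genes). The highest of these sums is that of the shallowest control, and reads of the most abundant markers did not follow depth: Alb had 2417 to 3102 reads in controls and 2840 to 2934 at 7 days, while Cyp2e1 had 1721 to 2353 and 968 to 1029. Of the B cell and NK cell markers 0 of 4 each were called by limma and 0 by limma-voom. An unadjusted p under 0.05 was found for 0 and 1 of them, against 6744 of all 14244 tested genes. Of 5 T cell markers 1 was called higher, Cd4 (20%). Of 4 tested markers of plasmacytoid dendritic cells, the main producers of type I interferon, Lair1, which other leukocytes also carry, was called higher, and Siglech and Ccr9 had log2 fold changes of −0.43 and −0.49. The part of these cell types in the rise of Ifit2, Tlr7 or Irf8 was not tested.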

How the data were processed

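Bulk RNA-seq libraries of 11 livers, 1 per mouse, were analysed. Per the labels and the study's methods, the authors masked low-quality bases and aligned reads to mm9 with TopHat2 2.0.8 without strand. The submitters' processing notes also name featureCounts 1.4.5-p1, SAMtools and DESeq2. Annotation and duplicate handling are not given in the sources used here. The deposited values are eRPKM, a form of RPKM that the authors scaled to each library per kilobase of exon. The authors' own comparison of 7 days with control (3 columns of a mean, a fold change and an adjusted p) was not used.

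Each gene's values were whole multiples of 1 step, which gave back the reads: 100% of 177553 values above 0 lay within 0.1 of a whole read. These reads served for depth and for limma-voom. The filter kept 14244 genes that reached 0.5 eRPKM in 3 or more livers. They were fitted in limma 3.58.1 under R 4.3.3 (trended eBayes), with log2(eRPKM + 0.5) as the response and all 3 groups in one model. The pseudocount understates changes of low genes. The threshold was an adjusted p below 0.01 together with a log2 fold change beyond 0.5. Group means of each member were compared by exact permutation (two-sided, 70 or 35 splits), with adjustment over 27 tests. Tested on simulated reads for 7 days against control (14244 genes, 200 of them shifted by 1.5 on the log2 scale), the step called 188 (94%) in the right direction and 3 unshifted genes. The simulation gave all genes the same spread between livers (dispersion 0.0233) and held no effect of sex. Its shifted genes were drawn from those with more reads. These rates therefore do not carry over to the real livers. Each p-value sets a difference between groups against the spread between these livers. It does not separate time from sex or depth.

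Members and lists were chosen with earlier results of these data known. All 9 members were named, and from each list the called genes, at most 6 by size of change at 7 days, with Stat2, Irf9, Ifnar1, Ifnar2, Oasl1 and the 10 genes most like the members. Ube2l6, Parp9 and Dtx3l fall outside that limit and were named after their values were seen. A result covered by this rule is not reported here. Gene positions came from GENCODE M1 (mm9) and promoters from RefSeq (GRCm38.p6). Other software was Python 3.11.15 with pandas 2.3.3, numpy 2.4.6, matplotlib 3.10.9 and scipy 1.17.1. Alternatives were pseudocounts of 1 and 0.1, other filters, scalings, covariates and limma options, a replicate block, limma-voom, an adjusted p under 0.05 at any fold, female livers only and fits without 1 liver at a time.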

Additional observations from a re-analysis of the deposited data

Results flagged for a closer look

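In 18 sets of 4 livers (9 members in controls and at 3 days), 2 had a liver that stood apart from the others by Dixon's ratio of gap to range, and chance alone gives about 1 in 20. For Rsad2 in controls the ratio was 0.95: liver 2 was at 10.2 eRPKM and the other controls at 6.43 to 6.62. For Isg15 in controls it was 0.85, with liver 1 at 9.55 eRPKM and the others at 13.3 to 14.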

How the results depend on the processing

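Ifit2 at 7 days kept its direction under every alternative and lost its call under log2 depth alone. The cause of the changes below was not tested. The number of members called at 7 days was 3 with median-ratio size factors and 3 with quantile normalization (Ifit2 higher, Usp18 and Rtp4 lower), 0 with log2 depth, and 2 at an adjusted p under 0.05 by limma with any fold. Between 7 and 3 days it was 1 with a pseudocount of 1, 1 with robust eBayes, 1 with limma-voom, 2 with quantile normalization and 2 at an adjusted p under 0.05. Quantile normalization moved the median log2 fold change of the members to −0.78 at 7 days and to −0.50 between the times. The number of other interferon-stimulated genes called at 7 days was 5 in female livers, 4 with log2 depth and 18 at an adjusted p under 0.05. Between the times it was 7 with the replicate block, 5 with log2 Xist, 3 in female livers, 6 with log2 depth and 17 at an adjusted p under 0.05. Replicate numbers did not pair the livers: deviations of same-numbered livers had r from −0.222 to 0.269 over 10 pairs, and the replicate block left the members called at 7 days at 1.

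Signs turned for values near 0. At 3 days, with MF as a covariate, Ifit1 was −0.17 and Isg15 −0.35. At 7 days Rsad2 was −0.21 with size factors, −0.57 with quantile normalization, −0.13 with MF, −0.04 with Xist, −0.11 in female livers and −0.14 with depth. Stat2 was −0.21, −0.19, −0.16, −0.19 and −0.08 with size factors, quantile normalization, Xist, female livers and depth. Oasl1 was −0.17, −0.61 and −0.17 with size factors, quantile normalization and depth, Ifnar2 −0.03 and −0.05 with size factors and depth, and Oasl2 −0.29 and −0.17 with quantile normalization and in female livers. Between the times Rsad2 was −0.30 with quantile normalization and Ifit3 0.01 with the block.

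Leaving out each liver gave 1 member called at 7 days throughout, and 0 to 1 between the times, where Ifit2 was called without control liver 4 or 3-day liver 3. It gave 2 to 12 other interferon-stimulated genes at 7 days and 4 to 12 between the times. Log2 fold changes ranged from −0.08 to 0.42 (Ifit1) and −0.23 to 0.52 (Isg15) at 3 days, from −0.48 to 0.03 (Isg15), −0.06 to 0.19 (Rsad2), −0.16 to 0.18 (Stat2) and −0.04 to 0.21 (Oasl1) at 7 days, and from −0.21 to 0.18 (Ifit3) and −0.47 to 0.06 (Usp18) between the times. Depth limits Oasl2 most, which had 7 reads in control liver 4.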
